A study of Rattus norvegicus with 32 samples.

Results

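The genes of tryptophan breakdown and NAD synthesis were examined in liver and small intestine of lactating rats. Members were taken as the transcript clusters (the gene-level probe groups of the array) whose annotated symbol is Acmsd, Tdo2, Afmid, Kmo, Kynu, Haao, Qprt, Nadsyn1, Nampt or Nnmt, and for each gene the cluster was chosen by its mean over the 32 arrays, the highest being kept. Of these 10 genes, 9 had a cluster, out of 19434 clusters in all. Each of the 9 had exactly 1 cluster, so the choice by mean level changed nothing, and the means over the 32 arrays lay between 4.48 for Acmsd and 8.37 for Nadsyn1 on the log2 scale. Afmid, the formamidase that follows Tdo2, was matched to no cluster and was not analysed here. The rise of Acmsd in the lactating liver was known when the genes were chosen.

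RNA came from Sprague-Dawley rats that were in day 10 to 11 of lactation and from virgin controls of the same age, both sacrificed at hour 16. Pools of RNA from 4 animals were prepared from the 16 animals of a state, and a pool holds the same animals in liver, duodenum, jejunum and ileum. The 32 Affymetrix Rat Exon 1.0 ST arrays therefore form 8 groups of 4 pools, numbered 1 to 4 in each state. The labels call the samples homogenates of whole tissue, whereas the methods of the study describe scrapes of the intestinal mucosa. Virgin controls differ from the dams in pregnancy, birth and nursing together, and these cannot be told apart here.

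Tryptophan that is not used for protein is broken down mainly in the liver through the kynurenine pathway. Its enzymes open the indole ring and pass the product through kynurenine, hydroxykynurenine and hydroxyanthranilate to an unstable semialdehyde, aminocarboxymuconate semialdehyde. This intermediate either closes on its own to quinolinate, the starting point for making NAD from tryptophan, or is decarboxylated by Acmsd toward glutarate and full oxidation. NAD is also rebuilt from nicotinamide by a salvage route, and nicotinamide leaves the body after methylation. In a bulk sample, fewer cells of a type and less RNA per cell cannot be told apart.

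Values are RMA expression values on the log2 scale, so a difference of 1 is a doubling. Array medians lay between 4.68 and 4.87. A difference was called when the adjusted p of limma, corrected over all 19434 clusters, was under 0.05, and differences are given ± SE with 4 pools in each group. Each SE rests on 1 estimate of a gene's spread shared by all 8 groups, so it can be wider or narrower than the pools of the tissue tested imply. The labelled tissues carried their defining transcripts, with 5 hepatocyte markers at means of 12.88 (Serpina1) to 13.64 (Ttr) in control liver and 2.94 (Alb) to 5.08 (Ttr) in control duodenum. The enterocyte marker Fabp2 was at 5.73 in control liver and at 13.44 to 13.66 in the 3 control segments. Deviations from the group means correlated between the 2 states at 0.344, 0.154, 0.105 and 0.555 for pools of number 1 to 4. Pools of different numbers gave -0.347 to 0.104, so number 3 was hardly set apart. On the first principal component of these deviations, the 8 arrays of number 4 lay apart from the rest. This component held 30.1% of the variance left after the group means (tissue and state) were removed. A second fit with the pool number as an added term was therefore made, and it is quoted beside calls of the genes and lists below that it changed. That fit treats pools of the same number as pairs, which neither the labels nor the methods state and which was inferred from these data.

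In control rats, 8 of the 9 genes were highest in the liver, and each of these was called above the duodenum, the jejunum and the ileum. Of all clusters, 14.8% met the same condition. Nadsyn1 was the exception and was called lower in the liver than in each segment. All 9 genes differed between the 4 control tissues by the F test, as did 51.7% of all clusters. Taken pair by pair, 40.6% of all clusters were called between liver and duodenum, 43.5% between liver and jejunum and 43.3% between liver and ileum. Between segments the shares were 13.1% (duodenum and jejunum), 20.8% (duodenum and ileum) and 26.1% (jejunum and ileum). The plot of the values by tissue shows these levels for every pool.

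**Figure D1:**
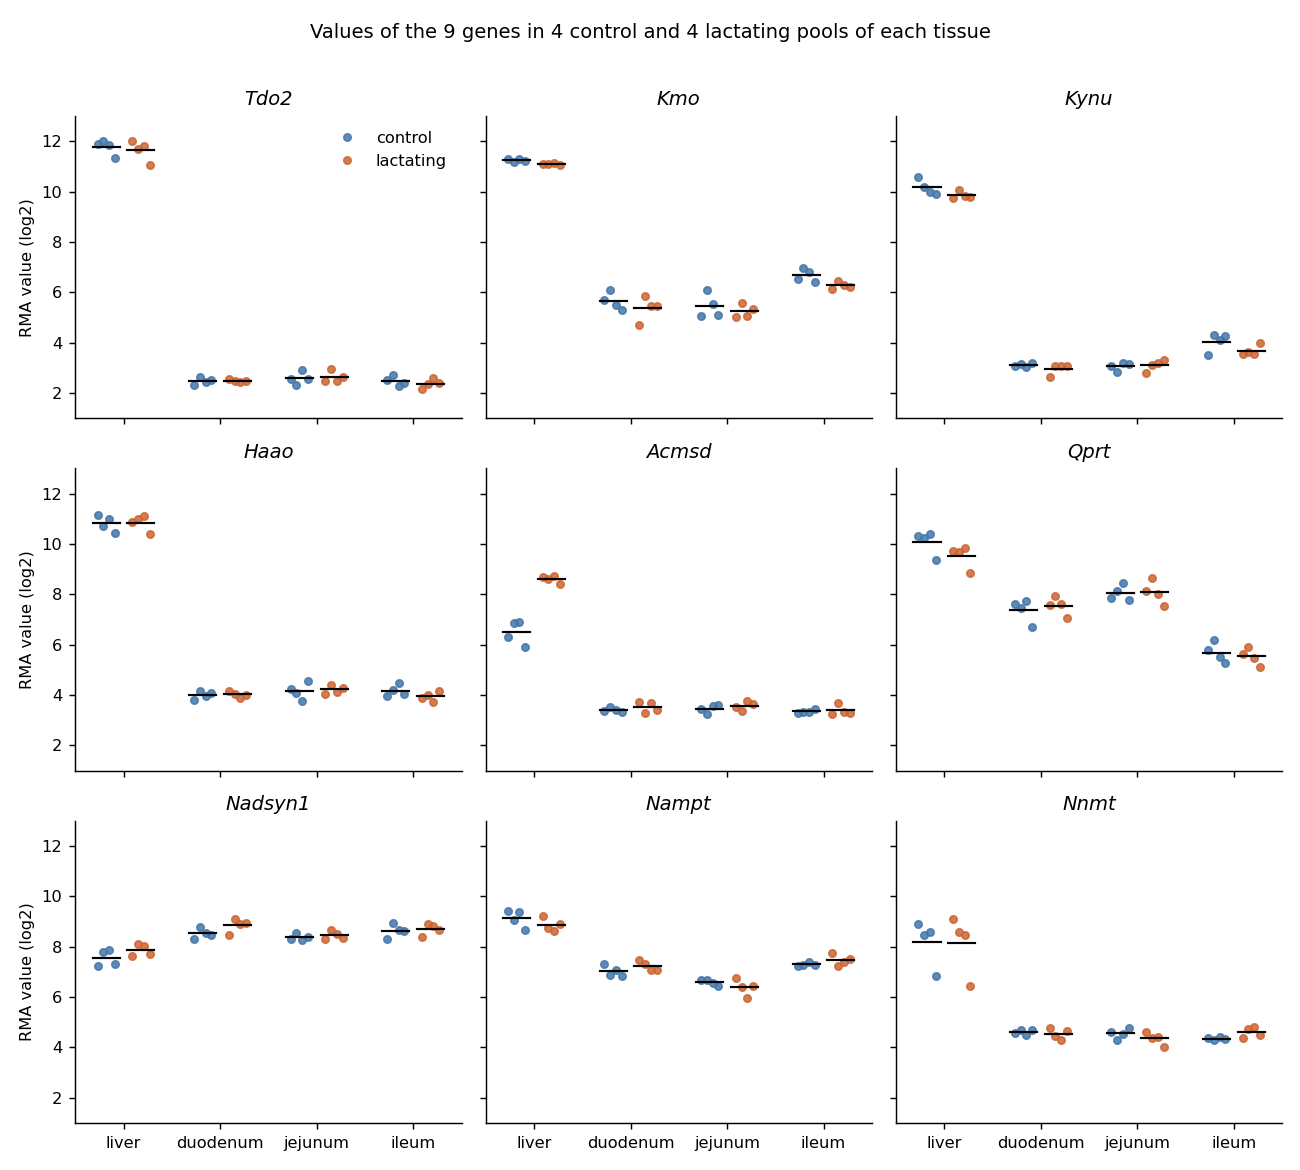
RMA value on the log2 scale (y) of the 9 genes in 4 tissues (x), with 1 point per pool (blue, control; orange, lactating; n = 4 each) and a black line at the group mean. Acmsd separates the states in the liver (control 5.89 to 6.91, lactating 8.41 to 8.72), and Nadsyn1 alone has its lowest values in the liver.

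Tdo2, the dioxygenase that opens the indole ring and sets the pace of the hepatic pathway, was high in the liver and low in every segment. The control pools of the liver read 11.87, 12.00, 11.87 and 11.32, and the lactating pools read 12.01, 11.68, 11.82 and 11.05. The states overlapped, and pool 4 was the lowest of each. In the intestine the 24 values lay between 2.14 and 2.95, below the median of every array. Control liver exceeded control duodenum by 9.28 ± 0.16 (adjusted p = 8.44e-28), jejunum by 9.18 ± 0.16 (adjusted p = 1.08e-27) and ileum by 9.30 ± 0.16 (adjusted p = 7.91e-28), and no difference between segments was called. No detection calls were used, so these differences, and those of the other genes over intestinal readings near or below the array medians, are differences of array values and need not equal the difference in RNA. Lactating minus control in the liver was -0.12 ± 0.18 (adjusted p = 0.869), with a 95% interval of -0.49 to 0.24.

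The sequences before the starts of 4 genes are shown because these genes were liver-high to different degrees and their RefSeq windows end at the annotated start, from Tdo2, Kynu and Haao, whose intestinal readings lay below the array medians, to Qprt, which was also well above them in duodenum and jejunum. Each holds the 250 bases before the annotated start in RefSeq's GRCr8 assembly, 5′ to 3′ on the gene's strand, at chr2:169585587-169585836 (minus strand) for Tdo2, chr3:48188036-48188285 (plus) for Kynu, chr6:16598075-16598324 (plus) for Haao and chr1:191164007-191164256 (minus) for Qprt. Capitals mark matches to any of 7 motifs, searched on both strands.
Tdo2: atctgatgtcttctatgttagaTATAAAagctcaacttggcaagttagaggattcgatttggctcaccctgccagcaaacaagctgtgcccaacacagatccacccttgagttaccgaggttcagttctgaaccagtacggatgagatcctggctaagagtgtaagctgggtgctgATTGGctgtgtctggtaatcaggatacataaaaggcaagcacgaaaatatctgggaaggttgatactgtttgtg
Kynu: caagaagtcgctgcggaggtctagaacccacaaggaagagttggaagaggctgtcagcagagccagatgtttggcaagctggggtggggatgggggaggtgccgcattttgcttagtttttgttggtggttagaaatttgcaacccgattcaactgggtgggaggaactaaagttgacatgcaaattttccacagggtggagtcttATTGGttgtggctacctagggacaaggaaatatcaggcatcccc
Haao: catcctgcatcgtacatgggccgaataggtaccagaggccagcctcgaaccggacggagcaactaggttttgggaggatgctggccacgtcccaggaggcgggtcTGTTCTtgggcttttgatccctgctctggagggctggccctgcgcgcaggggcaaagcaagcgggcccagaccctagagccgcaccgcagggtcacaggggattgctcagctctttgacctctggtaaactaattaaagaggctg
Qprt: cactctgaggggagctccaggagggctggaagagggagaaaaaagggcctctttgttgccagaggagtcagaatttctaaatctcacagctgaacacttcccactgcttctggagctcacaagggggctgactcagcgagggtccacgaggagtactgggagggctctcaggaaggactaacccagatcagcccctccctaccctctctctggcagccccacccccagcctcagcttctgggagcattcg

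Of 33469 promoter windows of this length, 12.9% held the TATA box TATAAA and 34% the CCAAT box. The core of the Hnf1 site, GTTAAT, was in 6.45% of windows, and the Hnf4 site CAAAGTCCA was in 0.338%. The C/EBP site TTGCGCAA was in 0.14%, the core of the glucocorticoid receptor site, AGAACA, in 17.5%, and the E-box CACGTG in 5.59%. Tdo2 held the TATA box at position -228 and the CCAAT box on the other strand at position -74, counted from the start of the gene. Kynu held the CCAAT box on the other strand at position -44, and Haao held the glucocorticoid receptor core on the other strand at position -145. Qprt held none of the 7, and no matches in the printed sequences overlapped. The windows of Kmo and Nadsyn1 reach into the annotated gene and are not printed. That of Kmo held the Hnf4 site on the other strand at position -74, overlapping the CCAAT box on the same strand at position -76, and that of Nadsyn1 held none. Positions in the Kmo window are counted from the end of the window, so both matches lie inside the annotated gene. These are matches of letters only.

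Kmo, the monooxygenase of the outer mitochondrial membrane that hydroxylates kynurenine, read 11.30, 11.19, 11.30 and 11.22 in the control liver and 11.10, 11.09, 11.16 and 11.06 in the lactating liver. Every lactating pool was below every control pool. This separation was small, at -0.15 ± 0.20 (95% interval -0.55 to 0.25, adjusted p = 0.856), and was not called. The SE is that of the spread shared by all groups, and the liver pools alone were closer together (SD 0.05 in control, 0.04 in lactating liver). In the liver, 2.65% of all clusters had every lactating pool below every control pool. The ileum was the second highest tissue. Control ileum (6.67 ± 0.25, SD) was above control duodenum (5.65 ± 0.34) by 1.02 ± 0.18 (adjusted p = 7.88e-05) and above control jejunum (5.44 ± 0.48) by 1.23 ± 0.18 (adjusted p = 5.37e-06). Duodenum and jejunum were not separated (adjusted p = 0.557). The ileal pools read 6.51, 6.95, 6.81 and 6.41 in controls and 6.13, 6.46, 6.31 and 6.23 in lactation, a difference of -0.39 ± 0.20 (adjusted p = 0.474) with 1 lactating pool above the lowest control pool.

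Kynu, the vitamin B6 dependent hydrolase that makes hydroxyanthranilate, showed the same order of tissues. Control liver held 10.58, 10.19, 10.00 and 9.89 and lactating liver 9.77, 10.05, 9.85 and 9.79, so that the groups overlapped. The liver difference was -0.30 ± 0.16 (adjusted p = 0.486), and pool number 1 gave -0.81 while the other numbers gave -0.10 to -0.16. Control ileum exceeded control duodenum by 0.93 ± 0.15 (adjusted p = 2.75e-05) and control jejunum by 0.97 ± 0.15 (adjusted p = 1.19e-05). The control ileum read 3.49, 4.30, 4.10 and 4.25 and the lactating ileum 3.56, 3.62, 3.54 and 4.01. This difference of -0.35 ± 0.16 had an unadjusted p of 0.0405 and was not called after correction (adjusted p = 0.407). All Kynu values in the intestine were below the array medians.

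Haao, the dioxygenase that forms the semialdehyde at the branch point, was at 10.82 ± 0.32 (SD) in control and 10.85 ± 0.32 in lactating liver. The control pools read 11.16, 10.72, 10.98 and 10.43 and the lactating pools 10.88, 11.01, 11.12 and 10.40, with pool 4 the lowest of each state. The difference of 0.03 ± 0.18 (95% interval -0.34 to 0.40, adjusted p = 0.978) did not separate the states. In the intestine, the 24 values lay between 3.73 and 4.56. No difference between control segments was called for this gene (adjusted p = 0.55 to 0.969).

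Acmsd, the decarboxylase that diverts the semialdehyde from quinolinate and so from NAD, rose in the lactating liver and was the only one of the 9 genes called without the pool number in the fit. The control liver pools read 6.30, 6.88, 6.91 and 5.89 and the lactating liver pools 8.69, 8.60, 8.72 and 8.41. Every lactating pool was above every control pool, and the lactating pools were closer together (SD 0.14 against 0.49). In the liver, 2.56% of all clusters had every lactating pool above every control pool. The mean rose 4.32-fold, or 2.11 ± 0.16 on the log2 scale (95% interval 1.78 to 2.45, adjusted p = 9.73e-10). Pools of the same number differed by 2.39, 1.73, 1.82 and 2.51.

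In the intestine Acmsd had group means of 3.35 to 3.57. Control pools lay between 3.33 and 3.52 in duodenum, 3.26 and 3.59 in jejunum, and 3.30 and 3.44 in ileum. Lactating pools lay between 3.30 and 3.74, 3.35 and 3.77, and 3.25 and 3.67 in the same order, so that the states overlapped in each segment. The differences were 0.12, 0.11 and 0.04 (each ± 0.16, adjusted p = 0.908, 0.872 and 0.969). The lactation difference of Acmsd varied between tissues (interaction adjusted p = 1.42e-07), as it did for 2.05% of all clusters, and for none of the other 8 genes, whose interaction adjusted p lay between 0.338 and 0.964. Liver minus the mean of the segments was 2.02 ± 0.17 for Acmsd (adjusted p = 8.7e-09). The control level itself separated liver from jejunum, the next highest tissue, by 3.03 ± 0.15 (adjusted p = 1.09e-16), and no difference between control segments was called. The intestinal readings were below the array medians.

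**Figure D2:**
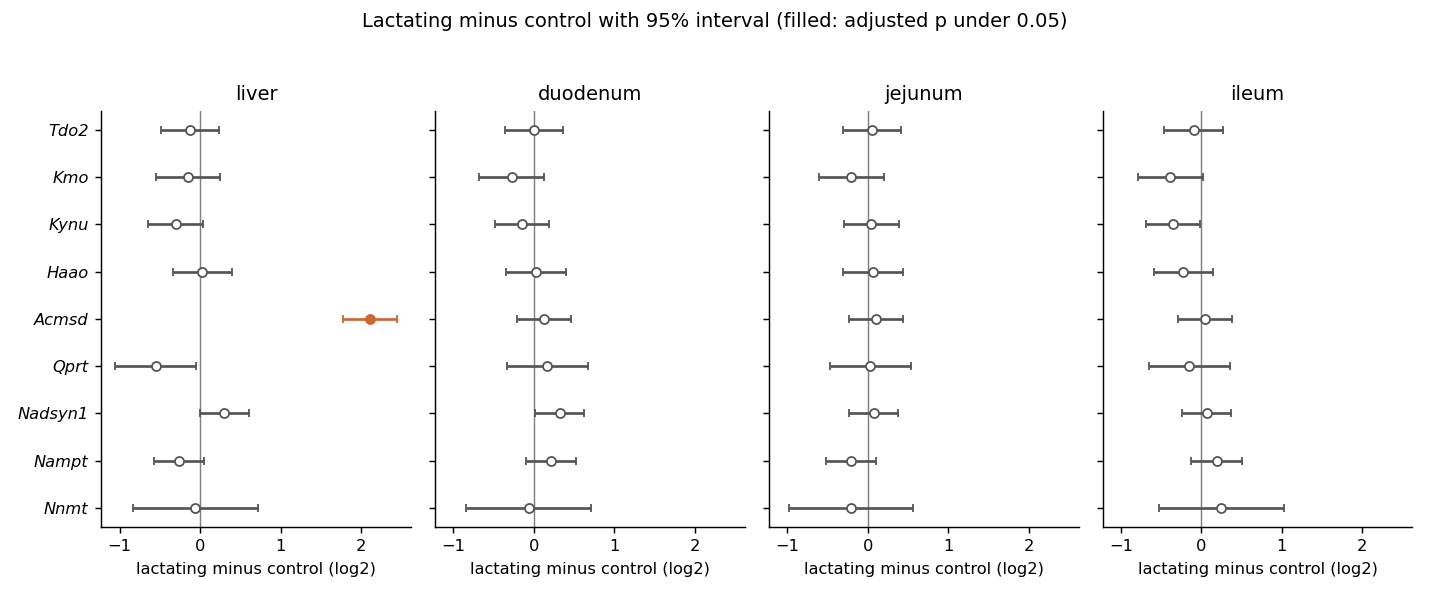
Lactating minus control on the log2 scale (x) for the 9 genes (y) in each tissue, with bars giving the 95% interval of the limma fit (4 pools per group). The filled point, Acmsd in the liver at 2.11, is the only one with an adjusted p under 0.05, and 34 of the 36 differences lie within 0.5 of 0.

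Qprt, which joins quinolinate to phosphoribose and commits it to NAD, was graded along the tissues. The control means were 10.07 ± 0.48 (SD) in liver, 8.05 ± 0.29 in jejunum, 7.39 ± 0.46 in duodenum and 5.69 ± 0.38 in ileum. Neighbours in this order differed by 2.02 ± 0.22 (liver and jejunum, adjusted p = 7.37e-09), 0.67 ± 0.22 (jejunum and duodenum, adjusted p = 0.0472) and 1.70 ± 0.22 (duodenum and ileum, adjusted p = 1.1e-06). The middle step was lost without the pool as a random block, without any 1 of the 4 control pools, without lactating pool 1 or 3, and without both pools of number 4, with adjusted p up to 0.169. The ileum was thus lowest for Qprt, whereas it was the highest segment for Kmo and Kynu.

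In the liver, Qprt read 10.33, 10.22, 10.39 and 9.36 in the control pools and 9.73, 9.69, 9.84 and 8.83 in the lactating pools. Pool 4 lay far below the others in both states, so the groups overlapped. Lactating minus control was -0.55 ± 0.24 (95% interval -1.05 to -0.05, unadjusted p = 0.0328), and it was not called (adjusted p = 0.346). Within the numbers 1 to 4 the differences were -0.60, -0.53, -0.55 and -0.53. With the pool number in the fit the standard error was 0.14 and Qprt was called lower in the lactating liver (adjusted p = 0.0287). In that fit 2.49% of all clusters were called lower in liver. In the segments Qprt differed by 0.17 (duodenum), 0.03 (jejunum) and -0.15 (ileum), each ± 0.24 and not called in either fit. The contrast of liver with intestine for Qprt was -0.57 ± 0.26 (adjusted p = 0.361, and 0.0854 with the pool number), so a difference between the tissues was not shown.

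Nadsyn1, the synthetase that amidates the last precursor of NAD, ran the other way between tissues. Control liver was at 7.56 ± 0.33 (SD), below jejunum at 8.38 ± 0.12, duodenum at 8.53 ± 0.20 and ileum at 8.63 ± 0.27. The liver was below the jejunum, its neighbour in level, by 0.81 ± 0.13 (adjusted p = 8.15e-06), and neighbouring segments were not called apart (adjusted p = 0.566 and 0.677). Jejunum and ileum, the ends of this order, gave an adjusted p of 0.182, and of 0.0319 with the pool number in the fit, where 28% of all clusters were called.

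In the liver the control pools of Nadsyn1 read 7.24, 7.81, 7.89 and 7.32 and the lactating pools 7.62, 8.11, 8.02 and 7.69. The states overlapped, with pools 1 and 4 lower than pools 2 and 3 in each. The differences within numbers were 0.39, 0.31, 0.13 and 0.38. The mean difference of 0.30 ± 0.15 was not called (adjusted p = 0.409), but with the pool number in the fit it was (± 0.09, adjusted p = 0.0483), where 1.64% of all clusters were called higher in liver. In the duodenum the pools read 8.30, 8.78, 8.56 and 8.46 in controls and 8.45, 9.12, 8.89 and 8.94 in lactation, a difference of 0.32 ± 0.15 that missed the threshold in both fits (adjusted p = 0.512 and 0.0526). All 6 pancreatic acinar markers also fell in the lactating duodenum, where their mean was 4.93 to 9.33 against 10.47 to 11.78 in the control pools, and the part of this in the duodenal values was not tested. In jejunum and ileum the differences were 0.08 and 0.07 (each ± 0.15).

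**Figure D3:**
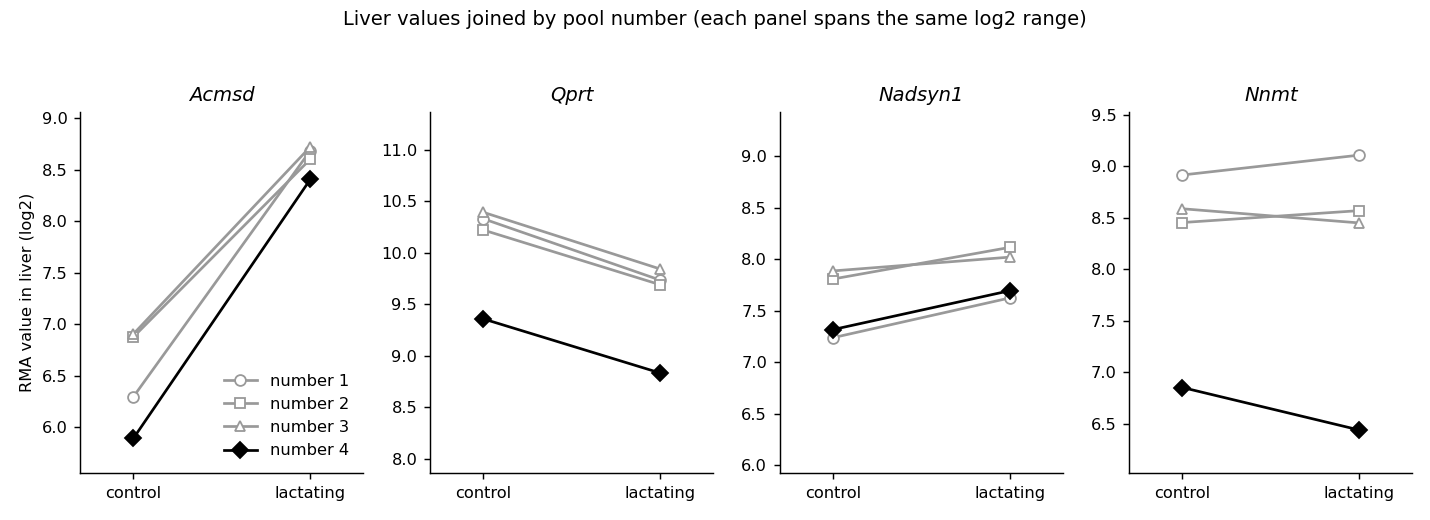
RMA value in the liver on the log2 scale (y) for 4 genes, with control and lactating pools of the same number joined by a line (black diamonds, number 4) and panels that span equal log2 ranges. The 4 lines of Qprt fall in parallel (-0.53 to -0.60), those of Acmsd rise by 1.73 to 2.51, and number 4 lies lowest for Acmsd, Qprt and Nnmt in both states.

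Nampt, the enzyme that limits the salvage of nicotinamide, had control means of 9.13 ± 0.35 (SD) in liver, 7.29 ± 0.07 in ileum, 7.02 ± 0.21 in duodenum and 6.59 ± 0.11 in jejunum. Liver and ileum differed by 1.84 ± 0.14 (adjusted p = 2.27e-12). Ileum and duodenum were not called apart (adjusted p = 0.182), and the step from duodenum to jejunum was 0.42 ± 0.14 (adjusted p = 0.0402). That step was lost in 7 of the alternatives, including those without any 1 of the control pools, with adjusted p up to 0.157. In the liver the pools of Nampt read 9.42, 9.07, 9.38 and 8.67 in controls and 9.24, 8.73, 8.60 and 8.90 in lactation, and the groups overlapped. The difference was -0.27 ± 0.15 (adjusted p = 0.521), negative for numbers 1 to 3 and positive for number 4. In the segments it was 0.22, -0.20 and 0.19 (each ± 0.15) in duodenum, jejunum and ileum, and none was called.

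Nnmt, which methylates nicotinamide with the methyl group of S-adenosylmethionine, varied more between liver pools than the other 8 genes did (SD 0.92 in control and 1.17 in lactating liver). The control liver read 8.92, 8.45, 8.59 and 6.85, and the lactating liver read 9.11, 8.57, 8.45 and 6.44. Pool 4 was low in both states, and the other 6 pools lay between 8.45 and 9.11 with the states interleaved. The lactation difference was -0.06 ± 0.38, with a 95% interval of -0.83 to 0.71 (adjusted p = 0.979). Control liver was above duodenum, the next tissue, by 3.59 ± 0.35 (adjusted p = 4.72e-10). No difference between the control segments, at 4.35 to 4.62, was called (adjusted p = 0.673 to 0.955). The shared SE of 0.35 carries the wide liver spread, while the SDs in the control segments were 0.05 to 0.20, so small differences between segments could be missed.

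Pool 4 was the lowest of its group in the liver in both states for 5 of the 9 genes (Acmsd, Tdo2, Haao, Qprt and Nnmt), against 14.7% of all clusters. The mean of the 5 hepatocyte markers in pool 4 was 13.29 in control liver, where the pools ranged from 13.27 to 13.32, and 13.24 in lactating liver, where they ranged from 13.24 to 13.38. The mean of 3 Kupffer cell markers was 8.31 and 8.52 in these pools, the lowest in control liver (8.31 to 9.39) and in lactating liver (8.52 to 9.40). The 6 macrophage markers were also lowest in pool 4 (7.66 of 7.66 to 8.24 in control, 7.94 of 7.94 to 8.10 in lactating liver). The same was true of the 4 fibroblast markers (6.25 and 6.67), the 3 T cell markers (3.44 and 3.65) and the 3 enterocyte markers (4.53 and 4.51). Pool 4 was instead the highest for the 6 pancreatic acinar markers in both states (4.52 and 4.435) and for the 3 enteroendocrine markers in lactating liver (4.72). Smooth muscle markers were lowest in pool 4 in control liver only, and adipocyte markers in lactating liver only. The T cell, enterocyte and acinar means of pool 4 lay below the array medians. The part of these cell types in the low readings was not tested. Between the states, no marker of hepatocytes, macrophages or Kupffer cells was called in the liver, and the hepatocyte markers differed by -0.01 to 0.07.

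Over the 9 genes, 1 was called higher and 0 lower in the lactating liver, where 1.88% of all clusters were called (0.715% higher, 1.17% lower). At an unadjusted p under 0.05 there were 2, and with the pool number in the fit 2 were called higher and 1 lower (4.13% of all clusters). None of the 9 was called in duodenum (0.643% of all clusters), jejunum (0.808%) or ileum (1.28%) by limma, with 1, 0 and 1 at an unadjusted p under 0.05. The fit with the pool number also called 0 in each segment, where it called 1.86%, 2.1% and 3.78% of all clusters, and it gave 1, 0 and 2 at an unadjusted p under 0.05. The share of all clusters at an unadjusted p under 0.05 was not counted, so these unadjusted counts cannot be set against a background. The study's mixed model, fitted to the same values, called none in the segments. The median difference of the 9 genes was -0.12 in liver (all clusters 0.01), 0.03 in duodenum (0.04), 0.05 in jejunum (0.01) and -0.10 in ileum (0.02).

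Around these enzymes, 90 further genes of 10 lists were counted, of which 65 had a cluster. The lists were chosen with earlier results of these data known, so their shares beside those of all clusters are descriptions and no test. In the liver 5 of the 65 fell and 0 rose (7.69% called, against 1.88% of all clusters), and with the pool number in the fit 10 were lower and 4 higher. In duodenum and jejunum none of the 65 was called by limma, and with the pool number 1 was higher in duodenum and 2 were higher and 2 lower in jejunum. In the ileum 6 fell and 0 rose (9.23% called), where 0.803% of all clusters fell and 0.479% rose, and with the pool number 7 were lower and 3 higher. The plot of the list genes gives the liver and ileum differences of each.

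In the liver, the falls belonged to 5 different lists. Ddc, the decarboxylase that makes serotonin and dopamine from their precursors, fell by 0.68 ± 0.12 (adjusted p = 0.000634), from 10.04 to 10.17 in control pools to 9.25 to 9.60 in lactating pools. Sirt1, a deacetylase that consumes NAD, fell by 0.57 ± 0.13 (adjusted p = 0.0173) and was 1 of 11 NAD consumers called. With the pool number in the fit Parp1, a polymerase that builds ADP-ribose chains from NAD, was also called, higher by 0.45 (adjusted p = 0.00691), and the related Tnks2 was called lower (-0.30, adjusted p = 0.0464). Slc16a10, a carrier of aromatic amino acids, fell by 0.48 ± 0.12 (adjusted p = 0.0415), 1 of 5 uptake genes, while Slc3a2, the shared partner chain of several amino acid carriers, was called higher with the pool number (0.35, adjusted p = 0.0322). Nr3c1, the glucocorticoid receptor, fell by 0.45 ± 0.12 (adjusted p = 0.0423), 1 of 8 regulators and targets. With the pool number 3 of the 8 were called lower, the others being Ahr (-0.35, adjusted p = 0.0356), a receptor that binds kynurenine among other ligands, and Pck1 (-0.79, adjusted p = 0.0256). Hadh, a dehydrogenase of short-chain hydroxyacyl-CoA and the 1 of 5 glutarate branch genes called, fell by 0.34 ± 0.08 (adjusted p = 0.0136). It acts downstream of Acmsd, and the other 4 genes of that branch with a cluster differed by 0.01 to 0.28 and were not called. With the pool number Dlst, a subunit of oxoglutarate dehydrogenase, was called higher (0.28, adjusted p = 0.0212). The serotonin transporter Slc6a4 was also called higher in that fit (0.38, adjusted p = 0.0298).

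Without the pool number, no call was made in the liver among 4 other entry and side-branch enzymes of the kynurenine pathway, 11 other NAD synthesis enzymes, 6 enzymes of the methyl donor cycle, 1 vitamin B6 enzyme or 10 clock genes. Kyat1, a transaminase that turns kynurenine into kynurenic acid, read 9.82 to 10.08 in the control liver and 10.20 to 10.30 in the lactating liver without overlap, and its difference of 0.36 ± 0.12 was not called (adjusted p = 0.149). In the liver 2.56% of all clusters had every lactating pool above every control pool, and Kyat1 was named after its values were seen. Ido1, the dioxygenase that carries out the step of Tdo2 outside the liver, read 3.26 to 3.66 in the 8 liver pools. With the pool number in the fit, Nadk2 (-0.45, adjusted p = 0.0478), a mitochondrial NAD kinase, and Nt5e (-0.48, adjusted p = 0.0478), an ectoenzyme that splits nucleotides, were called lower in the liver. In the jejunum that fit called Nt5e higher (0.55, adjusted p = 0.035) and Sarm1, an enzyme that cleaves NAD, higher (0.33, adjusted p = 0.0483). It called Aadat, a kynurenine transaminase, lower (-0.57, adjusted p = 0.0328) and the clock gene Cry2 lower (-0.50, adjusted p = 0.0292) there, and the clock gene Bmal1 higher in the duodenum (0.64, adjusted p = 0.0251). Of 6 adipocyte markers, limma without the pool number called only Adipoq in jejunal pools, lower by 2.94 ± 0.27 (adjusted p = 1.5e-07). The rest differed by -0.76 (Fabp4) to 0.27 (Cidec). Of 4 fibroblast markers only Lum was called, higher by 1.19 ± 0.28 (adjusted p = 0.0294), and Dcn gave -0.07. The hepatocyte markers Alb (-0.53) and Ttr (0.74) were called in opposite directions (adjusted p = 0.0273 for each). With the pool number, Col1a2 and Col3a1 (fibroblast) were also called higher and Cd5 (T cell) lower (-0.60, adjusted p = 0.0387). The part of these markers in the jejunal values was not tested.

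In the ileum, the 6 falls called without the pool number were of other genes than in the liver. With the pool number Pck1 was called lower in both tissues. Per3 fell by 0.93 ± 0.16 (adjusted p = 0.000921), Dbp by 0.73 ± 0.16 (adjusted p = 0.0152) and Per1 by 0.61 ± 0.12 (adjusted p = 0.0071), 3 of the 10 clock genes. With the pool number 5 of the 10 were called, with Nr1d1 also lower (-0.57, adjusted p = 0.0166) and Bmal1 higher (0.71, adjusted p = 0.00834). Pck1, which makes phosphoenolpyruvate and is induced by glucocorticoids in the liver, fell by 1.35 ± 0.24 (adjusted p = 0.00256). Maob, an amine oxidase, fell by 1.28 ± 0.25 (adjusted p = 0.00571), and Pdxk, the kinase that activates vitamin B6 (the cofactor of Kynu), by 0.54 ± 0.14 (adjusted p = 0.0404). Ido1 in the ileum read 3.78 to 4.76 in controls and 4.48 to 5.69 in lactation, with a difference of 0.62 ± 0.21 that was not called (adjusted p = 0.182). In the ileum the pool number also brought in Naprt, which starts NAD synthesis from nicotinic acid (0.37, adjusted p = 0.0122), and Dld, a dehydrogenase subunit of the glutarate branch (0.40, adjusted p = 0.0417), both higher. Among ileal cell type markers, the 3 enterocyte markers gave 0.12 (Fabp2), -0.60 (Alpi) and -1.76 (Lct), and the fibroblast marker Lum gave 0.90. None of these was called (adjusted p of Lct 0.107 and of Lum 0.112), but with the pool number Lct was called lower (adjusted p = 0.0352) and Lum higher (adjusted p = 0.0143). The mean of the 3 enterocyte markers was 9.21 to 10.46 in control and 8.49 to 10.13 in lactating pools, and their part in the ileal values was not tested.

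**Figure D4:**
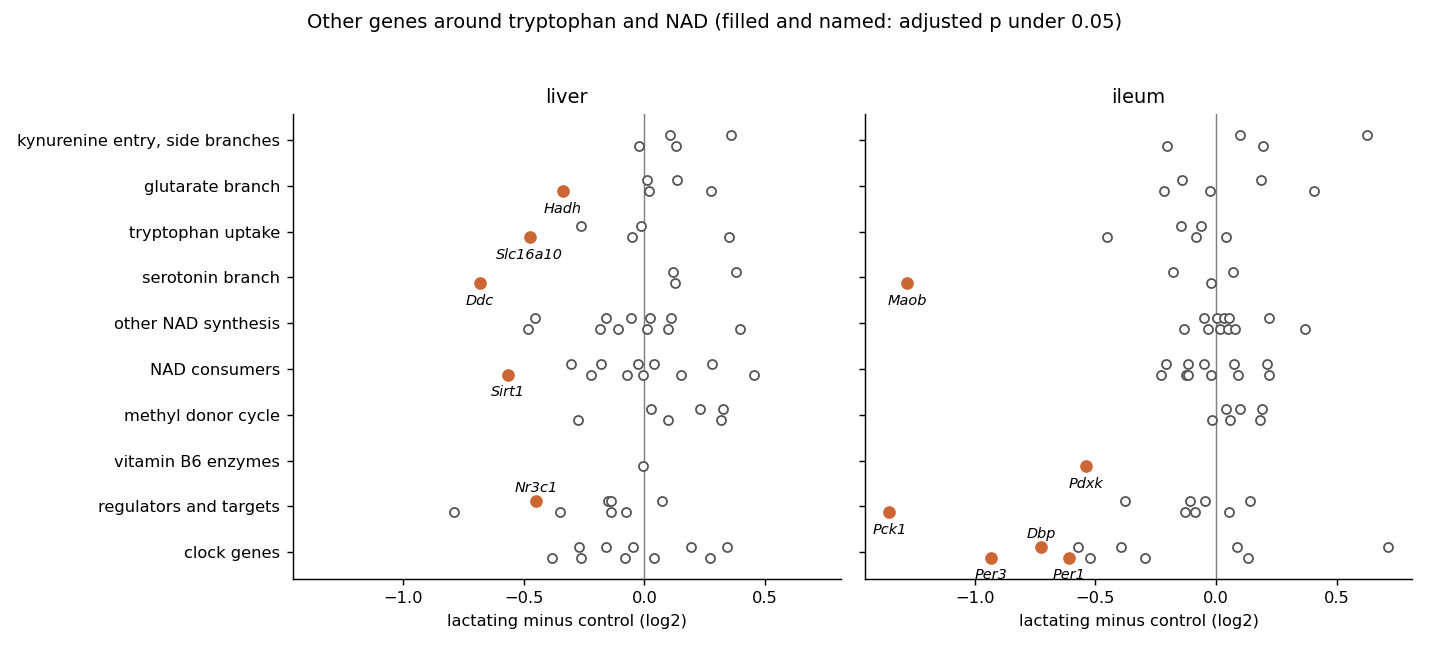
Lactating minus control on the log2 scale (x) of the 65 further genes by list (y) in liver and ileum, with filled, named points for an adjusted p under 0.05 in limma. The named points, 5 in liver and 6 in ileum, all lie below 0.

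The genes with the most similar profile over the 32 arrays were sought among 13214 named genes by Pearson's r, which here mainly follows the gap between liver and intestine that all points of a tissue share. For Tdo2 these were Fgg (0.999), Itih4 (0.999) and Apof (0.999), and for Haao they were Slc10a1 (0.998), Uox (0.998) and Apoc1 (0.998). Kmo was nearest to Sdc2 (0.994), Pygl (0.993) and Ndrg2 (0.993), and Kynu to Baat (0.996), Slc6a9 (0.996) and Azgp1 (0.996). Acmsd, with its added step in the lactating liver, was nearest to Apba2 (0.982), Tex36 (0.98) and Epha3 (0.978). Nnmt was nearest to Lect2 (0.98), Fabp7 (0.98) and Serpina10 (0.978), and Nampt to Nln (0.975), Nit2 (0.974) and Spryd7 (0.973). The values were lower for Qprt, with Pdk2 (0.962), Phyh (0.959) and Grhpr (0.959), and for Nadsyn1, with Cptp (0.932), Tbrg4 (0.927) and Srpk1 (0.92). These correlations describe 32 arrays of 8 groups and carry no test.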

How the data were processed

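RNA of 4 tissues from 4 control and 4 lactating pools was hybridised to 32 arrays. The deposited values are log2 expression values, which the authors obtained by RMA in Affymetrix Expression Console (background correction, quantile normalization, summary over the probes of the extended set, annotation rn4). The sources used here give no software versions. Normalization across tissues gives all arrays a common distribution, so levels are relative. The number of arrays limits the precision.

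No value was changed. In limma 3.58.1 (R 4.3.3, statmod 1.5.0), means of the 8 groups were fitted with the pool as a random block (correlation 0.163) and moderated variances (prior degrees of freedom 3.24). Benjamini-Hochberg adjustment ran over the 19434 clusters. Only the 13327 clusters with exactly 1 annotated symbol were named, and list genes without one were not analysed here. Of the further lists, counts and the called genes (at most 4 per list and tissue) are given, and for likeness the 3 highest correlations. Kyat1, Ido1 and list genes called only with the pool number were named after their values were seen.

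Deviations from group means correlated at 0.105 to 0.555 between pools of the same number and at -0.347 to 0.104 between other pools of opposite state. The labels' numbers were therefore treated as pairs, although neither the labels nor the methods state a pairing. Members and lists were chosen with earlier results of these data known. Alternatives were the pool number as a term, no random block, quantile normalization within tissue, a filter on group means under 6, array weights, the study's mixed model, single tissues, and omission of each pool or of number 4. The fit was tested on simulated data. The study's filter on exon detection was not applied. Python 3.11.15 (pandas 2.3.3, numpy 2.4.6, scipy 1.17.1, matplotlib 3.10.9) was used for tables and plots.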

Additional observations from a re-analysis of the deposited data

Results flagged for a closer look

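The difference between lactating and control pools varied between the 4 tissues for Acmsd (interaction adjusted p = 1.42e-07 in limma), with a rise of 2.11 in liver and differences of 0.04 to 0.12 in the segments. Of 72 groups of 4 pools, 4 held a pool that lay far from the other pools of its group relative to the range (Dixon's criterion), and chance alone is expected to mark about 1 in 20 groups, or 3.6 here. Qprt read 9.36 in control liver pool 4 against 10.22 to 10.39 in the other pools. Qprt read 8.83 in lactating liver pool 4 against 9.69 to 9.84 in the others. Kynu read 2.64 in lactating duodenum pool 1, where the others lay between 3.06 and 3.08. Nampt read 7.40 in control ileum pool 3, above the others at 7.25 to 7.27.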

How the results depend on the processing

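The rise of Acmsd in the liver kept its call in all 16 alternatives, between 1.91 and 2.25, with adjusted p of 4.95e-11 to 0.0141. Of 576 values of a lactation difference under an alternative, 574 kept their side of the threshold, no called value changed sign, and 34 values that were not called did. The replicate number as a block (the pairing of the pools inferred from these data) raised the members called in the liver from 1 to 3 and changed no call of a member in another tissue. It called 803 clusters in liver, 361 in duodenum, 409 in jejunum and 735 in ileum, where the fit without it called 366, 125, 157 and 249. Array weights gave 359 in duodenum and 442 in ileum. With the arrays of that tissue only, 43, 29, 25 and 15 were called in liver, duodenum, jejunum and ileum. Leaving out a pool, or both pools of number 4, gave 211 to 525 in liver, 76 to 130 in duodenum, 69 to 162 in jejunum, 84 to 246 in ileum, 176 to 401 for the interaction (399) and 224 to 444 for liver against intestine (398). Without the random block these last counts were 235 and 247. Among the 8587 clusters with a group mean of 6 or more, 653 were called for the interaction. Between control tissues, 15 of 756 values lost a call, all for Qprt or Nampt between duodenum and jejunum, and 2 gained one, both for Nadsyn1 between jejunum and ileum. The causes were not tested. No gene had another cluster, so that alternative gave no value. An adjusted p above the threshold does not show that groups were equal.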
